A study of Mus musculus with 6 samples.

Results

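Collagen is made, trimmed, joined and taken apart by a chain of enzymes and their helper proteins, and the messages for 10 of these proteins were examined here in mouse cells with and without forced expression of HOXA13, a homeobox transcription factor of the posterior body and distal gut. The genes were Pcolce, Htra1, Bmp1, Lox, Loxl1, Loxl2, Plod2, P4ha2, Serpinh1 and Mmp2, which is 10 of the 24393 genes listed in the count files, and each was matched by its symbol. They were assembled around Pcolce and Htra1, which were chosen by their lower counts with HOXA13 in these same libraries. The comparison of HOXA13 with CONTROL therefore chose those 2 genes, their values are given as a description, calls that include them are mentioned only to show what each count holds and how it shifts with the setting, and no count over the 10 genes is read as evidence.

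The libraries came from KH2 mouse embryonic stem cells, labelled as strain C57/BL/6 and built for insertion of doxycycline-inducible genes, which were differentiated toward definitive endoderm, the germ layer of the gut lining. There were 3 CONTROL and 3 HOXA13 libraries, and the HOXA13 cells carried the human gene, intron included, with a FLAG tag under doxycycline control. All cultures shared M15 feeder cells, a mesoderm-derived line, and a medium that held Noggin, CHIR, Activin-A and basic fibroblast growth factor. Doxycycline (1.25 µg/ml) was added from day 4 to switch on HOXA13, the fraction carrying CXCR4 together with E-cadherin was collected by sorting on day 6, and it stayed in doxycycline for a further day, and the labels do not say whether CONTROL cells received it. The study describes 3 biological replicates per group, but whether each was a separate targeted clone is not stated.

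Newly made procollagen chains are hydroxylated and folded in the endoplasmic reticulum, secreted, freed of their end propeptides, cross-linked through lysine residues and later degraded by secreted proteases. These steps are best known from mesenchymal cells such as fibroblasts, which deposit fibrillar collagen, while epithelial cells mainly contribute basement membrane collagen. P4ha2 encodes a catalytic subunit of prolyl hydroxylase, Plod2 a lysyl hydroxylase and Serpinh1 a collagen chaperone. Bmp1 encodes the protease that removes the carboxyl propeptide, and Pcolce encodes the enhancer of that protease. Lox, Loxl1 and Loxl2 encode lysyl oxidases, the cross-linking enzymes, Mmp2 encodes a gelatinase, and Htra1 encodes a secreted serine protease.

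The libraries held 12279884 to 17331638 counts, and 3 counts, used as the floor, corresponded to 0.176 to 0.240 CPM (CPM are counts scaled to the same normalised library size, and the floor covers counting error only). The row under the human identifier ENSG00000106031, which the files do not pair with a symbol, had 0 counts in each CONTROL library and 2497, 7666 and 6572 counts in HOXA13 replicates 1, 2 and 3, while mouse Hoxa13 had at most 10 counts in any library. CONTROL replicate 2 stood apart from the other CONTROL libraries. Over the 13600 tested genes (not independent of each other), its Spearman's rho was 0.908 and 0.931 with CONTROL replicates 1 and 3 but 0.951 to 0.961 with the HOXA13 libraries, while CONTROL replicates 1 and 3 reached 0.977 with each other. The 13 definitive endoderm markers summed to 127 to 172 CPM in CONTROL and 170 to 209 CPM in HOXA13, and of the 11 tested 4 were lower and 7 higher in HOXA13. Most of that sum came from Eomes, Tmprss2 and Prdm1, named after their values had been seen, with Eomes at 24.4 to 111 CPM, Tmprss2 at 11.3 to 111 CPM and Prdm1 at 6.10 to 48.5 CPM over the 6 libraries. Sox17 was at 0.975 to 4.84 CPM, and Cer1 at 0 counts in every library. Of the genes for the sorted surface proteins, Cxcr4 was at 2.25 to 11.3 CPM, and the E-cadherin gene Cdh1 stood at 192, 1292 and 702 CPM in the CONTROL libraries and 1732, 1690 and 1893 CPM in the HOXA13 libraries. Cdh1 did not overlap between the groups, and its log2 fold change was 1.28 (SE 0.55, edgeR adjusted p-value 0.351).

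The promoters of the genes are shown because the transcription factor that was added acts on DNA, and those of Pcolce, Htra1 and Serpinh1 are printed because none of these genes overlapped between the groups. RefSeq windows were at hand for 4 of the 10 genes, the other being P4ha2, and each window of 250 bases before the annotated start (GRCm38.p6) was placed by exact match on mm9. Each printed stretch ends where the window meets an exon base of that gene in GENCODE M1, runs 5′ to 3′ on the strand of the gene, and carries GC boxes (GGGCGG on either strand) in capitals. The windows of Pcolce and P4ha2 lie within the span that M1 gives these genes, since some M1 transcripts start further upstream than the RefSeq start.
Pcolce, chr5:138052716-138052882, minus strand: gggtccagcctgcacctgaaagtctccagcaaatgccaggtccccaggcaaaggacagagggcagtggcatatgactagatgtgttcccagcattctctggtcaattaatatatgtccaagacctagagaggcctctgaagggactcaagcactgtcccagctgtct
Htra1, chr7:138079467-138079624, plus strand: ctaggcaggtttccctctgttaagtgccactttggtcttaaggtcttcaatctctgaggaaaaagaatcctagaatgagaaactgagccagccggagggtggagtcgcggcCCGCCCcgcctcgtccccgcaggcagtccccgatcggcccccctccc
Serpinh1, chr7:106501750-106501999, minus strand: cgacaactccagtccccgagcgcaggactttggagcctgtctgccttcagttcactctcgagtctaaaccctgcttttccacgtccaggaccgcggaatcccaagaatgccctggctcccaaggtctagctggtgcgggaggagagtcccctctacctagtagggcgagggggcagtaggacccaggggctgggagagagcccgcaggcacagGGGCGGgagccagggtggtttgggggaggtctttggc
Over the full 250 bases, the G and C content was 58.8% for Pcolce, 64.8% for Htra1, 63.6% for Serpinh1 and 70.0% for P4ha2. The letters CAATAAA and TCGTAAA, forms of the sites that posterior HOX proteins bind, were searched on both strands and were found in 0 of these 4 windows. Across all 32851 RefSeq windows of that length, 4.2% held CAATAAA and 0.478% held TCGTAAA, and their absence says only that these letters are not in these windows. TATAAA was likewise absent from the 4 windows, against 12.4% of all windows. GGGCGG occurred 2 times in P4ha2 and 1 time in each of the other windows, in Pcolce outside the printed stretch, and 32.7% of all windows held it.

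Of the genes for propeptide removal, Bmp1 for the protease and Pcolce for its enhancer, both were lower in every HOXA13 library than in any CONTROL library. Pcolce (mm9, chromosome 5, 138046331 to 138055012, minus strand) had 156, 116 and 133 CPM in the CONTROL libraries and 58.0, 54.8 and 51.0 CPM in the HOXA13 libraries, here and below in the order of replicates 1, 2 and 3. The highest HOXA13 library was at 0.499 of the lowest CONTROL library. The means were 135 ± 20.1 and 54.6 ± 3.52 CPM (SD, n = 3 each), a log2 fold change of -1.31 (SE 0.17). In this annotation 112 exonic bases of Pcolce are shared with Fbxo24 on the same strand, out of 3823, so a few of its reads could belong to either gene. Bmp1 (chromosome 14, 70874364 to 70920067, minus strand) was far less variable, with 604, 530.5 and 538 CPM in the CONTROL libraries and 456, 430.0 and 448 CPM in the HOXA13 libraries. Its groups also did not overlap, but the log2 fold change was only -0.33 (SE 0.14) and missed the threshold (adjusted p-value 0.349, quasi-likelihood test of edgeR). The ratio of Pcolce to Bmp1 reads lay between 0.219 and 0.258 in CONTROL and between 0.114 and 0.127 in HOXA13. It is a description only, because Pcolce was chosen for its lower counts with HOXA13.

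Bmp1 and Loxl2 lie on chromosome 14, whose genes as a whole differed between libraries. The median deviation of 319 chromosome 14 genes from the 6-library mean was -0.39, 0.20 and -0.32 on the log2 scale for the CONTROL libraries and 0.22, 0.14 and 0.18 for the HOXA13 libraries. When each library was offset by the median of each chromosome, the log2 fold change of Bmp1 became -0.71, with an edgeR adjusted p-value of 0.209. That of Loxl2 became -3.32, from -2.82 without the offset. P4ha2 lies on chromosome 11, where the median deviation was 0.38 in CONTROL replicate 1 and between -0.12 and -0.04 in the other libraries, and its log2 fold change went from -0.86 to -0.65 with the offset. Chromosome 1 genes also differed, with a median log2 fold change of 0.53, but none of the 10 genes lies there.

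The secreted proteases were lower in HOXA13 without overlap. Htra1 (chromosome 7, 138079625 to 138129174, plus strand) had 73.1, 73.2 and 63.7 CPM in the CONTROL libraries and 27.5, 23.3 and 15.6 CPM in the HOXA13 libraries. Its CONTROL libraries lay within 1.15-fold of each other, CONTROL replicate 2 included, and the log2 fold change was -1.66 (SE 0.25). Mmp2 (chromosome 8, 95351227 to 95377316, plus strand) had 194, 16.6 and 78.6 CPM in the CONTROL libraries and 3.54, 5.92 and 4.37 CPM in the HOXA13 libraries. It had the largest fold change of the 10 genes, with means of 96.5 ± 90.1 and 4.61 ± 1.21 CPM (SD, n = 3 each) and a fitted log2 fold change of -4.38 (SE 0.81), but its CONTROL libraries spread over 11.7-fold. Its adjusted p-value was 0.0772 in edgeR, so it did not pass the threshold of 0.05. Mmp2 passed with DESeq2, with limma voom, with no filter beyond 1 count and without CONTROL replicate 2.

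**Figure D1:**
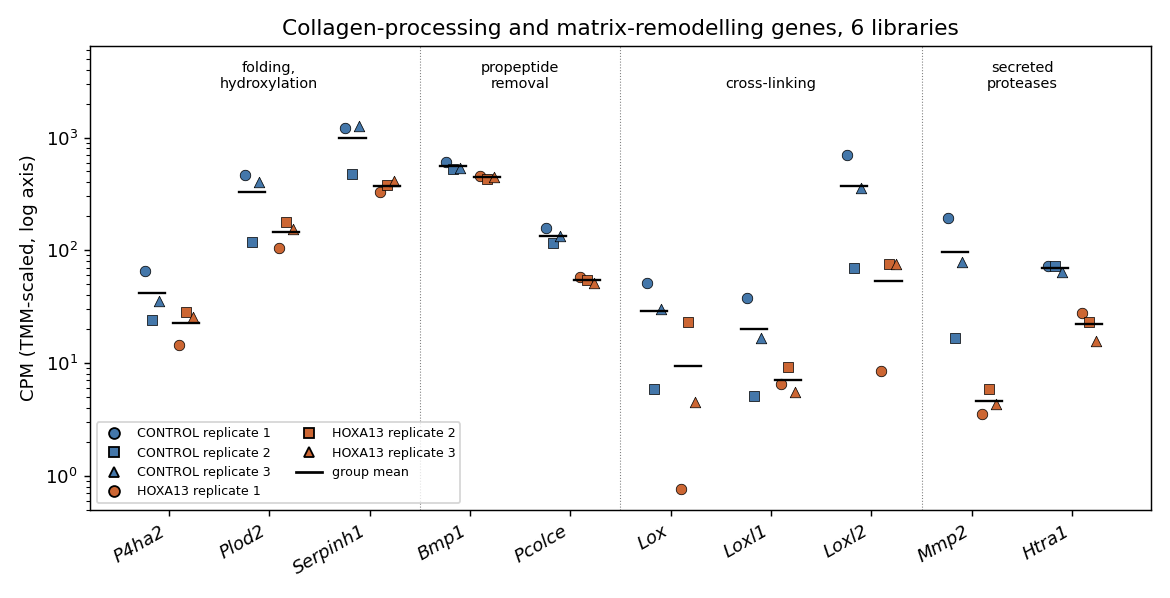
CPM on a log axis for the 10 genes, ordered by their step in collagen processing, with a point for each library and a bar for each group mean. Pcolce, Htra1, Bmp1, Serpinh1 and Mmp2 show no overlap between the groups, and CONTROL replicate 2 (blue squares) lies at or near the HOXA13 points for the folding and cross-linking genes.

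The folding and hydroxylation genes were lower on average in HOXA13, with CONTROL replicate 2 close to the HOXA13 libraries. Serpinh1 (chromosome 7, 106493885 to 106501740, minus strand) had 1206, 476 and 1265 CPM in the CONTROL libraries and 326, 383 and 409 CPM in the HOXA13 libraries. The groups did not overlap, but HOXA13 replicate 3 reached 0.858 of CONTROL replicate 2, and the log2 fold change was -1.40 (SE 0.34, edgeR adjusted p-value 0.135). Plod2 (chromosome 9, 92437061 to 92503266, plus strand) had 463, 118 and 400 CPM in the CONTROL libraries and 104, 178 and 154 CPM in the HOXA13 libraries. CONTROL replicate 2 was here below HOXA13 replicates 2 and 3, and the log2 fold change was -1.17 (SE 0.46, edgeR adjusted p-value 0.306). P4ha2 (chromosome 11, 53913597 to 53945167, plus strand) had 65.3, 23.8 and 35.5 CPM in the CONTROL libraries and 14.4, 28.4 and 25.6 CPM in the HOXA13 libraries. Its log2 fold change was -0.86 (SE 0.41), with an edgeR adjusted p-value of 0.399.

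The cross-linking genes were uneven among the CONTROL libraries, which spread over 9.90-fold for Loxl2, 8.72-fold for Lox and 7.39-fold for Loxl1, though Mmp2 spread further. Loxl2 (chromosome 14, 70008978 to 70095640, plus strand) had 694, 70.1 and 357 CPM in the CONTROL libraries and 8.45, 75.7 and 74.9 CPM in the HOXA13 libraries, so CONTROL replicate 2 was just below HOXA13 replicates 2 and 3. Its log2 fold change was -2.82 (SE 0.94), with an edgeR adjusted p-value of 0.238. Loxl1 (chromosome 9, 58135530 to 58161019, minus strand) had 37.8, 5.12 and 16.7 CPM in the CONTROL libraries and 6.53, 9.20 and 5.58 CPM in the HOXA13 libraries. CONTROL replicate 2 was the lowest of all 6 libraries for Loxl1, and the log2 fold change was -1.48 (SE 0.64, edgeR adjusted p-value 0.352). Lox (chromosome 18, 52675723 to 52689521, minus strand) had 50.9, 5.84 and 30.1 CPM in the CONTROL libraries and 0.768, 23.0 and 4.55 CPM in the HOXA13 libraries. Lox varied 29.9-fold among the HOXA13 libraries alone, and its log2 fold change was -1.61 (SE 1.09, edgeR adjusted p-value 0.574).

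Each of the 10 genes thus had a negative fitted log2 fold change, with a median of -1.44, while the median over all 13600 tested genes was -0.01 and 51.2% of them were below 0. The 2 genes past the adjusted p-value of 0.05 in edgeR were Pcolce and Htra1, the genes the set was built on. Over all genes 0.309% passed in either direction and 0.0441% in the lower direction. At an unadjusted p under 0.05 there were 8 of the 10, against 6.02% of all genes in the lower direction. Groups did not overlap for 5 of the 10 genes, while 20.0% of all tested genes did not overlap in either direction and 8.52% in the lower direction. Because the contrast itself chose the first members, nothing is read from these counts.

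**Figure D2:**
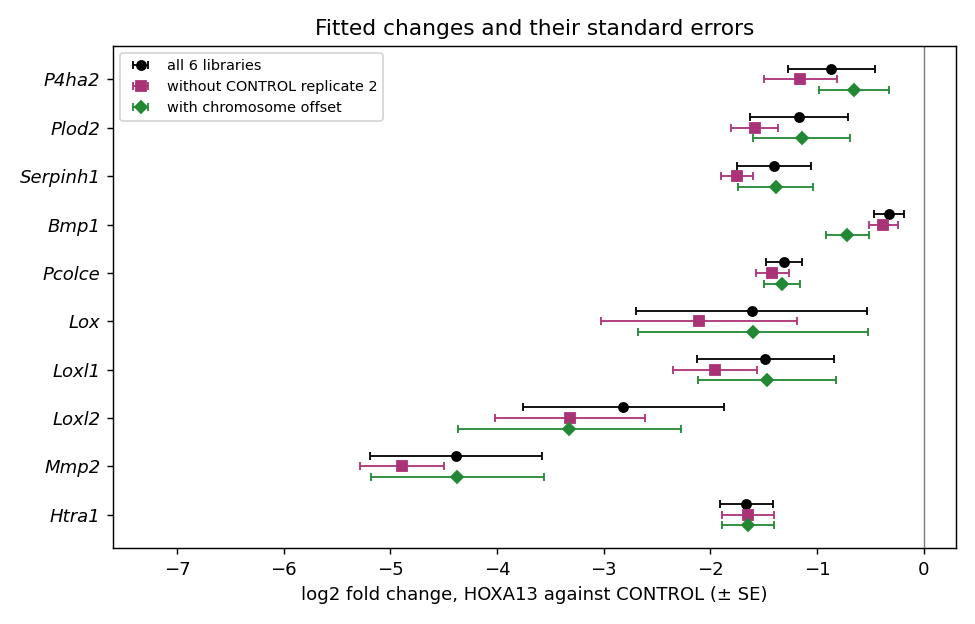
Log2 fold change of HOXA13 against CONTROL with its standard error for each gene, from all 6 libraries (black), without CONTROL replicate 2 (purple) and with each library offset by its chromosome medians (green). All values lie below 0, the standard errors of Plod2, Serpinh1 and Loxl1 are smaller without CONTROL replicate 2, and Bmp1 moves from -0.33 to -0.71 with the offset.

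CONTROL replicate 2 divided the genes by how far it departed from the other CONTROL libraries. It stood at 1.07 times the mean of CONTROL replicates 1 and 3 for Htra1, at 0.929 for Bmp1 and at 0.805 for Pcolce. For P4ha2, Serpinh1 and Plod2 it stood at 0.472, 0.385 and 0.274, and for Loxl1, Lox, Loxl2 and Mmp2 at 0.188, 0.144, 0.133 and 0.122. Without CONTROL replicate 2, 7 of the 10 genes passed in edgeR, all but P4ha2, Bmp1 and Lox, and 6.32% of all genes then passed in the lower direction. Without any single one of the other 5 libraries 0 of the 10 passed, Pcolce and Htra1 included, and between 4 and 7 of them had an unadjusted p under 0.05, as did 1100 to 1543 of the 14087 to 14181 genes tested in those fits, counted in either direction. DESeq2 called 4 of the 10, namely Serpinh1, Pcolce, Mmp2 and Htra1, against 1.94% of all genes in that direction. Limma voom with sample quality weights called 6, adding Plod2 and Loxl2, against 6.34% of all genes.

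Marker lists of other cell types were summed in each library beside these values. Summed over 24 mesenchymal markers, the level was 9762, 1938 and 8373 CPM for the CONTROL libraries and 1312, 2507 and 2218 CPM for the HOXA13 libraries, and of the 22 tested markers 18 were lower and 4 higher in HOXA13. In edgeR 0 of the 22 passed, with 9 lower and 1 higher at an unadjusted p under 0.05. DESeq2 called 3 lower and limma voom 8 lower and 1 higher. Among all genes the lower share was 6.02% at an unadjusted p under 0.05, 1.94% with DESeq2 and 6.34% with limma voom. None of the 24 mesenchymal markers was at 0 counts in all libraries. Groups did not overlap for 1 of the tested mesenchymal markers in the lower and 2 in the higher direction, against 8.52% and 11.5% of all tested genes. Vim, a mesenchymal intermediate filament gene, had 4351, 548 and 3576 CPM in the CONTROL libraries and 155, 722 and 481 CPM in the HOXA13 libraries, the same ranking of libraries within each group as for Loxl2. Vim overlapped between the groups and made up 4351 of the 9762 CPM summed in CONTROL replicate 1. The 24 epithelial markers summed to between 2457 and 8952 CPM in CONTROL and between 11272 and 13146 CPM in HOXA13. All 24 had higher fitted levels in HOXA13, and 0 passed the edgeR threshold. The unadjusted edgeR p was below 0.05 for 16 of the 24, against 8.05% of all genes in the higher direction. DESeq2 called 5 of them higher and limma voom 18, against 3.11% and 9.11% of all genes. For 18 of the 24 every HOXA13 library was above every CONTROL library, against 11.5% of all tested genes. The 13 pluripotency markers also set CONTROL replicate 2 apart, with sums of 164, 1757 and 274 CPM for the CONTROL libraries and 1078, 591 and 598 CPM for the HOXA13 libraries. In edgeR 0 of them passed (0 at an unadjusted p under 0.05, 0 called by DESeq2 and 5 higher by limma voom). Without CONTROL replicate 2, 7 of the 13 passed as higher, against 7.92% of all genes in that fit. The median log2 fold change of the 13 then went from -0.41 to 2.29. The 12 markers of the mesonephros-derived M15 feeder, led by Msln and Gata3, summed to 98.4 to 157 CPM in CONTROL and 94.7 to 125 CPM in HOXA13. Of the 10 tested 8 were lower and 2 higher, with a median log2 fold change of -0.59, and 0 passed in edgeR (0 at an unadjusted p under 0.05, and 0 called by DESeq2 or limma voom). Wt1 reached 1.49 to 6.64 CPM in CONTROL and 0 to 1.05 CPM in HOXA13 without overlap, while Pax2 and Pax8 stayed at or below 0.879 and 0.426 CPM. The 17 extraembryonic endoderm markers listed in the files summed to 1297 to 1657 CPM in CONTROL and 1401 to 1551 CPM in HOXA13, most of it from Lamb1 and Lamc1, and Afp and Ttr were at 0 counts in every library. Of the 13 tested 12 were lower and 1 higher, with a median log2 fold change of -0.45. Without overlap 3 were lower and 1, Lamc1, was higher, where 8.52% of all tested genes were lower and 11.5% higher without overlap. Lamc1 lies on chromosome 1, and its log2 fold change of 0.45 was below the median of 0.53 for that chromosome. In edgeR 0 of the 13 passed, with 2 lower and 1 higher at an unadjusted p under 0.05, while DESeq2 called 1 lower and limma voom 3 lower. The part of any of these cell types in the lower levels of the 10 genes was not tested, and in such bulk samples fewer cells of a type and less RNA per cell cannot be told apart.

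**Figure D3:**
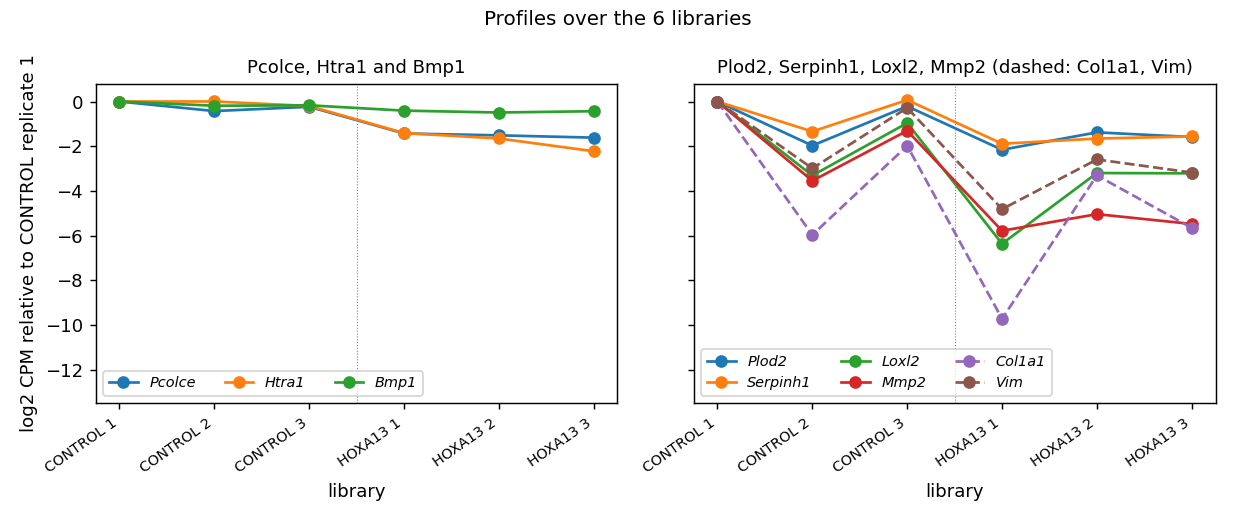
Log2 CPM relative to CONTROL replicate 1 in each of the 6 libraries. Pcolce, Htra1 and Bmp1 (left) stay level over the CONTROL libraries, while Plod2, Serpinh1, Loxl2 and Mmp2 (right) drop in CONTROL replicate 2, as do Col1a1 and Vim (dashed).

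Levels between genes were compared per kilobase of annotated exon, joined over all annotated transcripts of a gene. There were 15 such transcripts for P4ha2, 11 for Pcolce and 1 for Mmp2, so the order depends in part on the annotation. In CONTROL the order of mean levels was Serpinh1 (403 CPM per kilobase), Bmp1 (134), Plod2 (78.3), Loxl2 (69.9), Pcolce (35.3), Mmp2 (31.8), Htra1 (24.3), P4ha2 (6.66), Lox (6.16) and Loxl1 (5.96). The library ranges of neighbours in this order did not overlap between Serpinh1 and Bmp1, between Bmp1 and Plod2 or between Htra1 and P4ha2. They overlapped from Plod2 through Loxl2, Pcolce and Mmp2 to Htra1, and again among P4ha2, Lox and Loxl1. In HOXA13 the order opened with Serpinh1 (153 CPM per kilobase), Bmp1 (107) and Plod2 (34.8) as well, followed by Pcolce (14.3), Loxl2 (9.92) and Htra1 (7.69). The last were P4ha2 (3.66), Loxl1 (2.13), Lox (2.01) and Mmp2 (1.52), and these 4 overlapped from each to the next, with Lox below Mmp2 in HOXA13 replicates 1 and 3. Loxl2 also overlapped with its neighbours Pcolce and Htra1, while the other neighbours in this order did not overlap.

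The profiles of Pcolce and Htra1 over the 6 libraries resembled each other, with a root mean square difference of 0.30 on the log2 scale after centring each gene. The closest pair among the 10 genes was Plod2 and Serpinh1, at 0.28, and the most distant was Bmp1 and Mmp2, at 2.00. Among 8452 other genes whose mean reached 16 CPM, the 5 nearest to Pcolce were Decr1 (0.13), Zfpm2 (0.15), D16Ertd472e (0.16), Lef1 (0.16) and Akap12 (0.18). Those nearest to Htra1 were Ak1 (0.27), Jam3 (0.28), Akap12 (0.29), Tmem47 (0.29) and Mcc (0.30). These distances describe 6 libraries in 2 groups, so genes that differ between the groups by a similar amount are near each other by construction.

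Close relatives of these genes did not all have lower levels. They were taken from pathway lists written with earlier results of these data known. Pcolce2, the other propeptide enhancer, had 10.4, 42.9 and 21.3 CPM in the CONTROL libraries and 77.0, 38.9 and 37.8 CPM in the HOXA13 libraries, with a log2 fold change of 1.04 (SE 0.51, edgeR adjusted p-value 0.417). The number of Pcolce2 reads per Pcolce read was 0.0663 to 0.369 in CONTROL and 0.710 to 1.33 in HOXA13. Pcolce was chosen for its lower counts with HOXA13, so nothing is read from the separation of this ratio. Pcolce2 alone overlapped between the groups. Htra4, another protease of the HTRA family, had 1.49, 0 and 0.525 CPM in the CONTROL libraries and 12.1, 29.2 and 37.1 CPM in the HOXA13 libraries. Its log2 fold change was 5.24 (SE 0.96) with an edgeR adjusted p-value of 0.0762, so the difference did not pass the threshold although the groups did not overlap. Htra3 reached at most 3.26 CPM, with a log2 fold change of -1.91 (SE 1.06, edgeR adjusted p-value 0.482). Of the lysyl oxidases outside the set, Loxl4 averaged 54.0 ± 20.8 CPM in CONTROL cells and 49.4 ± 10.0 CPM in HOXA13 cells (SD, n = 3 each), and Loxl3 was at 6.35 ± 4.40 and 3.14 ± 2.66 CPM (SD, n = 3 each). Tgm2, a transglutaminase that also cross-links matrix proteins, averaged 9.34 ± 1.01 CPM in CONTROL cells and 3.37 ± 1.07 CPM in HOXA13 cells (SD, n = 3 each), without overlap (edgeR adjusted p-value 0.180).

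**Figure D4:**
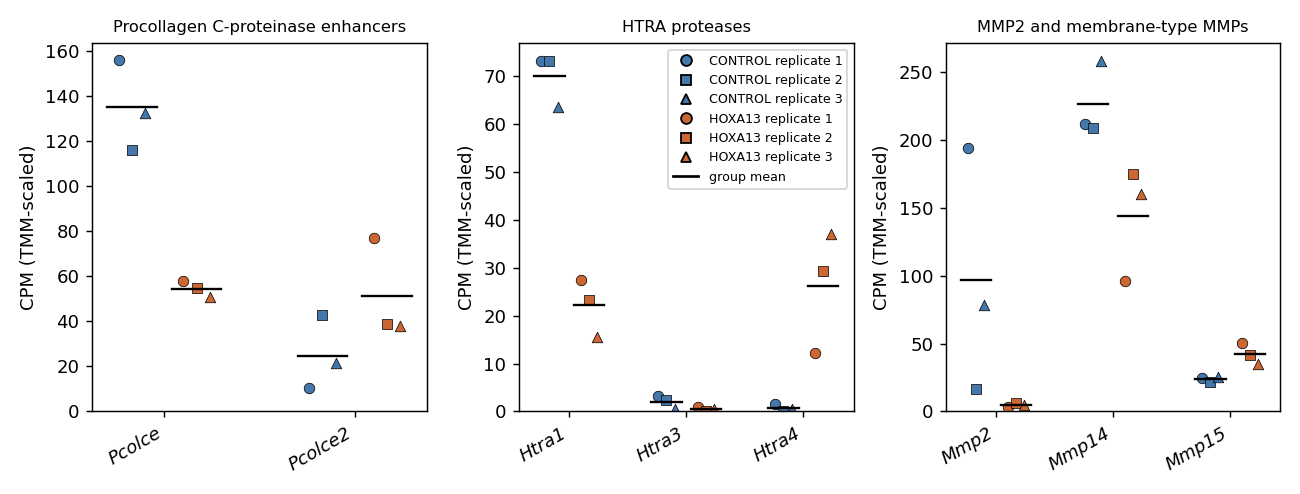
CPM in each library, with group means as bars, for Pcolce and Pcolce2 (left), Htra1, Htra3 and Htra4 (middle), and Mmp2 with the membrane-type proteases Mmp14 and Mmp15 (right). Pcolce, Htra1, Mmp2 and Mmp14 are lower and Htra4 and Mmp15 higher in every HOXA13 library than in any CONTROL library.

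Among the proteases and inhibitors, Mmp14, whose product activates the MMP2 precursor, and Mmp15 were named after their values had been seen. Mmp14 had 212, 209 and 258 CPM in the CONTROL libraries and 96.1, 175 and 160 CPM in the HOXA13 libraries (edgeR adjusted p-value 0.272). Mmp15 had 24.5, 21.6 and 25.3 CPM in the CONTROL libraries and 50.6, 41.5 and 34.9 CPM in the HOXA13 libraries (edgeR adjusted p-value 0.150). The most abundant inhibitors overlapped between the groups, with Timp3 averaging 306 ± 204 CPM in CONTROL cells and 204 ± 108 CPM in HOXA13 cells and Timp2 standing at 281 ± 178 and 123 ± 79.1 CPM (SD, n = 3 each). There were 13.5 to 34.7 Timp2 reads per Mmp2 read in HOXA13 and 2.23 to 5.08 in CONTROL.

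The remaining enzymes and inhibitors of the pathway numbered 56, of which 48 were tested, 33 with lower and 15 with higher fitted levels in HOXA13 and a median log2 fold change of -0.53. In edgeR 0 of them passed, with 11 at an unadjusted p under 0.05 (8 lower, 3 higher), while DESeq2 called 5 (3 lower, 2 higher) and limma voom 14 (10 lower, 4 higher). In the lower direction the share of all genes was 6.02% at an unadjusted p under 0.05, 1.94% with DESeq2 and 6.34% with limma voom. In the higher direction it was 8.05%, 3.11% and 9.11%. Without CONTROL replicate 2, 11 passed as lower and 4 as higher in edgeR, against 6.32% and 7.92% of all genes. Of the 14 other folding and hydroxylation genes, 11 were lower, and the most abundant were P4hb, the beta subunit of prolyl hydroxylase, at 890 ± 177 and 693 ± 31.4 CPM, and Fkbp10 at 318 ± 117 and 239 ± 41.4 CPM (SD, n = 3 each, CONTROL first). The largest fitted changes of that list were in scarce transcripts, Colgalt2 at 1.52 (SE 1.32) and P3h3 at -1.42 (SE 0.84) on the log2 scale. Of the other genes for propeptide removal, Adamts14 was at 4.67 ± 3.57 and 0.746 ± 0.116 CPM without overlap (SD, n = 3 each), with a log2 fold change of -2.63 (SE 0.79, edgeR adjusted p-value 0.189). Adamts3 had a log2 fold change of -1.51 (SE 0.88) and Tll1 one of -1.16 (SE 0.95).

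The collagens themselves are the substrates of these proteins. Of the fibrillar collagens, Col1a1 had 1163, 18.6 and 295 CPM in the CONTROL libraries and 1.38, 118 and 23.2 CPM in the HOXA13 libraries, with a log2 fold change of -3.37 (SE 1.57, edgeR adjusted p-value 0.392). Over the same libraries Pcolce covered a 3.06-fold range, so that there were between 0.134 and 6.24 Pcolce reads per Col1a1 read in CONTROL and between 0.465 and 41.9 in HOXA13. Col11a1 was at 103 ± 94.8 and 4.12 ± 1.26 CPM and Col5a1 at 200 ± 128 and 81.4 ± 30.2 CPM (SD, n = 3 each), and each overlapped between the groups. Of 10 tested fibrillar collagens 9 were lower, with a median log2 fold change of -0.93, and 0 passed in edgeR, 2 having an unadjusted p under 0.05, against 1 called by DESeq2 and 3 by limma voom. The basement membrane collagens Col4a1 and Col4a2 were the most abundant of the other collagens, at 1439 ± 710 and 671 ± 259 CPM and at 1095 ± 514 and 563 ± 231 CPM (SD, n = 3 each). The ratio of Serpinh1 to Col4a1 overlapped between the groups, at 0.668 to 0.767 reads per Col4a1 read in CONTROL and 0.467 to 0.878 in HOXA13. Col8a1 and Col12a1 had log2 fold changes of -3.54 (SE 1.11) and -2.88 (SE 0.84). Of these 13 tested collagens 9 were lower and 4 higher, and 0 passed in edgeR, with 4 lower at an unadjusted p under 0.05, against 1 lower called by DESeq2 and 6 lower and 1 higher by limma voom. For both collagen lists the lower share of all genes was 6.02% at an unadjusted p under 0.05, 1.94% with DESeq2 and 6.34% with limma voom. The higher share with limma voom was 9.11%.

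Most tested genes for matrix proteins that bind collagen or form elastic fibres had lower fitted levels in HOXA13. Fn1, fibronectin, averaged 3045 ± 894 CPM in CONTROL cells and 3868 ± 1629 CPM in HOXA13 cells (SD, n = 3 each). Fn1 overlapped between the groups, with a log2 fold change of 0.35 (SE 0.37, edgeR adjusted p-value 0.746). It lies on chromosome 1, where the median log2 fold change was 0.53. Sparc, a collagen-binding glycoprotein, had 2797, 1138 and 2225 CPM in the CONTROL libraries and 730, 805 and 755 CPM in the HOXA13 libraries, without overlap, with a log2 fold change of -1.43 (SE 0.30, edgeR adjusted p-value 0.102). Fbn2 and Mfap5 of the elastic fibre had log2 fold changes of -2.10 (SE 1.01) and -2.54 (SE 1.32). Of the 13 tested genes 11 were lower and 0 passed in edgeR, 1 having an unadjusted p under 0.05, against 1 called by DESeq2 and 3 by limma voom. All these calls were lower, where the shares of all genes were 6.02%, 1.94% and 6.34% in the same order.

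Plod2, P4ha2 and Lox are known hypoxia targets, and the part of hypoxia or TGF-beta signalling in their levels was not tested. Of 16 other tested hypoxia-response genes 6 were lower and 10 higher, with a median log2 fold change of 0.04. In edgeR 0 of them passed, with 1 lower and 1 higher at an unadjusted p under 0.05, against 1 lower and 1 higher called by DESeq2 and 1 lower and 3 higher by limma voom. Among all genes the lower shares were 6.02%, 1.94% and 6.34% in the same order, and the higher shares 8.05%, 3.11% and 9.11%. Slc2a1, a glucose transporter, had 345, 901 and 608 CPM in the CONTROL libraries and 1334, 1205 and 1578 CPM in the HOXA13 libraries, and Pfkfb3, a regulator of glycolysis, was at 91.9 ± 8.96 and 48.0 ± 7.37 CPM (SD, n = 3 each), both without overlap. Their edgeR adjusted p-values were 0.169 and 0.0904. Of the 16 genes, 1 was lower and 2 were higher without overlap, against 8.52% and 11.5% of all tested genes. Aldoa was at 714 ± 179 and 723 ± 60.3 CPM (SD, n = 3 each). Of 12 genes of the response to TGF-beta, a growth factor that promotes matrix deposition, 7 were lower and 5 higher, and 1 passed in edgeR, where 0.265% of all genes passed in the higher direction. It was Tgfbi, a secreted matrix protein gene, which rose from 11.8 ± 1.59 to 39.2 ± 8.54 CPM (SD, n = 3 each), and its log2 fold change was 1.73 (SE 0.26, edgeR adjusted p-value 0.0470). This call lies close to the threshold, and with any 1 library other than CONTROL replicate 2 left out between 0 and 7 of all genes passed.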

How the data were processed

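For each gene symbol the authors deposited unnormalised read counts, made from stranded poly-A libraries aligned to mm9 with TopHat and counted with HTSeq 0.6.1p1. The submitters' processing notes give TopHat2 2.0.14, a version that differs from the one in the study's methods. The annotation and strand option are not given in the sources used here. Counts were filtered with filterByExpr (minimum count 10, minimum total 15), which kept 13600 genes, scaled by TMM and compared between 3 CONTROL and 3 HOXA13 libraries with the quasi-likelihood test of edgeR 4.0.16 in R 4.3.3 (group alone, Benjamini-Hochberg adjustment over all tested genes, threshold 0.05). The study used DESeq2, run here as an alternative (1.42.0), as was limma voom (3.58.1). Standard errors come from the F statistic. Positions and exon lengths are those of GENCODE M1 on mm9, and 97.0% of tested genes had one. P-values measure the spread between these libraries.

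The members and lists were chosen with earlier results of these data known. Named pathway genes were those past the threshold, or otherwise the 2 most abundant and the 2 with the largest fitted change of each list. On data simulated for this comparison with 13160 genes left after filtering, edgeR called 81.6% of 4-fold and 15.7% of 2-fold changes. Of its calls, 6.80% fell on unchanged genes. Changes were planted only in genes whose mean reached 16 CPM. The simulated libraries held no outlying replicate and no chromosome shifts, unlike the real ones. Same-numbered CONTROL and HOXA13 libraries did not deviate together, so no pairing was used.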

Additional observations from a re-analysis of the deposited data

How the results depend on the processing

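All 10 genes kept a negative log2 fold change in each of the 15 alternatives, so in 150 of 150 fits, but calls depended on the setting. Of the 10 genes, 2 passed. The number was 3 with no filter beyond 1 count, 4 with DESeq2 and 6 with limma voom. It was 0 where the mean had to reach 50 counts and 0 with the chromosome offset (7 at an unadjusted p under 0.05 in each of those 2 fits). It was 0 to 7 when each replicate in turn was left out, the highest without CONTROL replicate 2. Over all genes 42 passed, against 722 with DESeq2, 2101 with limma voom and 106 with the edgeR 4 method. The number was 163 with no filter beyond 1 count and 9 where the mean had to reach 50 counts. It was 1 with the chromosome offset and 0 to 2006 without 1 replicate. Of the other matrix genes 0 passed (18 at an unadjusted p under 0.05), against 8 with DESeq2 and 27 with limma voom. The number was 1 with the edgeR 4 method, 3 with no filter beyond 1 count and 0 to 28 without 1 replicate. What causes the settings to differ was not tested. With the replicate number as a block, 0 of the 10 genes (4 at an unadjusted p under 0.05), 0 of all genes (1392) and 0 of the other matrix genes (10) passed. Same-numbered libraries had a mean correlation of -0.13 (-0.27 to 0.10). With 3 libraries a group, these correlations cannot show whether the numbers mark a shared batch. The log2 fold changes across alternatives ranged from -1.42 to -1.21 for Pcolce, from -1.86 to -1.48 for Htra1, from -0.71 to -0.29 for Bmp1, from -1.75 to -1.19 for Serpinh1, from -1.58 to -0.85 for Plod2, from -1.15 to -0.40 for P4ha2, from -1.95 to -0.64 for Loxl1, from -3.32 to -2.02 for Loxl2, from -4.89 to -3.38 for Mmp2 and from -3.45 to -0.94 for Lox. Without CONTROL replicate 1 the fold moved by over 1.5 times for Loxl1 (-0.64), Loxl2 (-2.02), Mmp2 (-3.38) and Lox (-0.94), and without HOXA13 replicate 2 for Lox (-3.45). Lox in HOXA13 replicate 1 rests on 10 counts, and Htra4 in CONTROL replicate 2 on 0.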
